A study of Mus musculus with 2 samples.

Results

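Cycling aortic macrophages are cells of the arterial wall that carry C1q, the complement component macrophages make in bulk, together with transcripts of dividing cells. They were chosen in the files by their own counts. A barcode was kept with at least 500 detected genes and at most 15% mitochondrial unique molecular identifiers (UMIs, each counting 1 captured RNA molecule). A kept cell was a member with at least 3 UMIs of C1qa, C1qb and C1qc together, at least 2 of Mki67, Top2a and Birc5 together, no UMI of Cd3e, Cd3d or Cd79a, and at most 5 of Jchain and Mzb1. The rule found 168 members among 24504 kept cells, 89 of 12466 in one library and 79 of 12038 in the other.

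The libraries held CD45+ leukocytes of the mouse aorta, measured by 10x droplet sequencing of RNA 3′ ends. One came from the group labelled as given ZnDPA@siIRF5, whose name points to a small interfering RNA against Irf5, and the other from the control group. There was 1 library per group. The labels used here state neither strain, genotype, diet, age, dose nor how many mice were pooled, and the members held 2 and 4 UMIs of Apoe, a gene that macrophages usually express strongly. With 1 library per group no difference between the groups could be tested, so ratios below carry intervals that cover counting error only, and neither variation between cells nor between mice. In bulk sums over cells, fewer cells of a type and less RNA per cell cannot be told apart.

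Tissue macrophages are known to renew by division as well as by recruitment of blood monocytes, and in the atherosclerotic aorta local division is a known source of lesion macrophages. A dividing cell copies its DNA in S phase with replication factors such as the Mcm helicase, Pcna and ribonucleotide reductase, then builds the spindle and divides in G2 and M phase under Cdk1 and its cyclins. Mki67 (Ki-67, which coats mitotic chromosomes), Top2a (topoisomerase II alpha, which untangles DNA) and Birc5 (survivin, a subunit of the chromosomal passenger complex) are transcribed mainly from S phase to mitosis. In the mm10 build, GENCODE places Mki67 at chr7:135689784-135716361 on the minus strand, Top2a at chr11:98992943-99024189 on the minus strand and Birc5 at chr11:117849251-117855743 on the plus strand. The C1q genes lie side by side on the minus strand, C1qb at chr4:136880129-136886187, C1qc at chr4:136889804-136893065 and C1qa at chr4:136895917-136898803.

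Irf5, the gene named in the treatment (chr6:29526625-29541871, plus strand), encodes a transcription factor of inflammatory macrophage activation. It gave 142 UMIs in the members of the library labelled ZnDPA@siIRF5 and 97 in those of the control library, or 126 and 111 CPM (a gene's UMIs scaled to a total of 1000000). The log2 ratio was 0.18, with a 95% interval from -0.20 to 0.57, and in C1q macrophages without proliferation UMIs the levels were 126 and 114 CPM. Irf5 RNA was thus not lower under the treatment label and cannot serve as a check of the labels. The members had a median of 11186 and 10274 UMIs and 3326 and 3132 genes per cell, against 5909 and 5730 UMIs in non-cycling C1q macrophages. No barcode was shared between the members of the libraries, although 38 kept barcodes were. A doublet caller marked 4 and 3 members. RNA of other cells was present throughout: Igkc, an antibody light chain that macrophages do not make, had a UMI in 88 of 89 and 79 of 79 members.

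The members fell into 2 unlike sets once genes outside the rule were read. Lists of 54 G2 and mitosis genes and 48 DNA replication and S phase genes, neither holding Mki67, Top2a or Birc5, were summed in each cell. In the 83 members with 4 or more proliferation UMIs (Mki67, Top2a and Birc5 together), the G2/M list reached 4696 CPM under ZnDPA@siIRF5 and 4534 CPM in the control library. In C1q macrophages with none, it stood at 240 and 269 CPM. In the 85 members with 2 or 3 proliferation UMIs it was 315 and 448 CPM, which is 1.31 and 1.67 times the level without proliferation UMIs, against 19.6 and 16.9 times in the members with 4 or more. The cells just outside the rule, with 1 proliferation UMI, held 312 and 309 CPM.

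The S phase list showed the same split. It stood at 568 and 559 CPM in cells without proliferation UMIs, at 770 and 996 CPM with 2 or 3, and at 2454 and 2388 CPM with 4 or more. Chromatin and tubulin genes of dividing cells, 22 in all, went from 4322 and 4271 CPM to 4639 and 5793 CPM and then to 16903 and 16693 CPM. All of these are levels of genes that the rule did not read but that belong to the same process, so they describe the members rather than test them. By these lists the word cycling fits the 83 members with 4 or more proliferation UMIs. The summed levels of the other 85 stayed nearer to those of non-cycling cells. The lists do not read cell type. Of the members with 4 or more, 1 under ZnDPA@siIRF5 and 3 in the control library held at least 20 UMIs of the neutrophil genes S100a8 and S100a9. At least 3 UMIs of the dendritic cell genes Flt3, Zbtb46, Cd209a, Ccr7 and Xcr1 together stood in 4 and 6 of them.

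**Figure D1:**
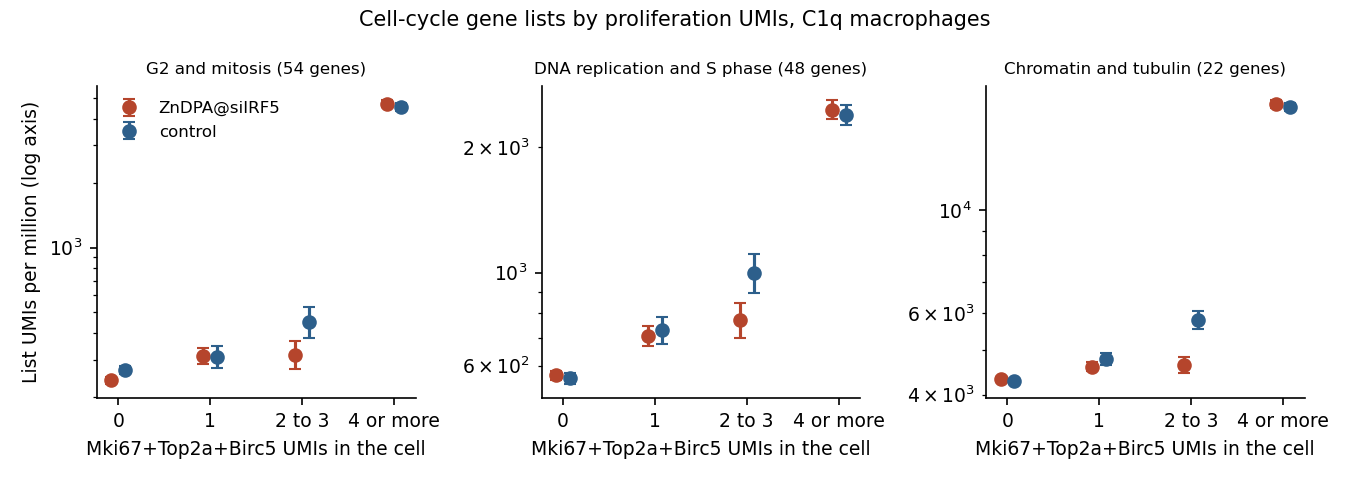
Summed level of 3 cell-cycle gene lists (CPM, log axes) in C1q macrophages grouped by their Mki67, Top2a and Birc5 UMIs, in the ZnDPA@siIRF5 (red) and control (blue) libraries, with 95% Poisson intervals. The G2/M list stays between 240 and 448 CPM up to 3 UMIs and reaches 4696 and 4534 CPM at 4 or more.

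Single cells showed the divide as well. In the members with 4 or more proliferation UMIs, 34 of 40 and 39 of 43 cells held at least 10 UMIs of the G2/M list, with a lowest, median and highest cell of 1, 65 and 168 UMIs under ZnDPA@siIRF5 and of 0, 42 and 245 UMIs in the control library. Among those with 2 or 3, only 3 of 49 and 3 of 36 cells reached 10, and the medians were 3 UMIs in both. The S phase list was less even in that set: 5 of 49 and 4 of 36 cells held at least 20 of its UMIs and carried 45.0% and 42.0% of the set's S phase UMIs. Such cells were 0.752% and 0.706% of those without proliferation UMIs, and 25 of 40 and 20 of 43 of those with 4 or more. Among the members with 2 or 3, 34 and 19 cells had met the rule with Mki67 alone. Their median depth, 10810 and 9055 UMIs, was also above that of cells without proliferation UMIs, and the part of depth in their passing the rule was not tested.

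**Figure D2:**
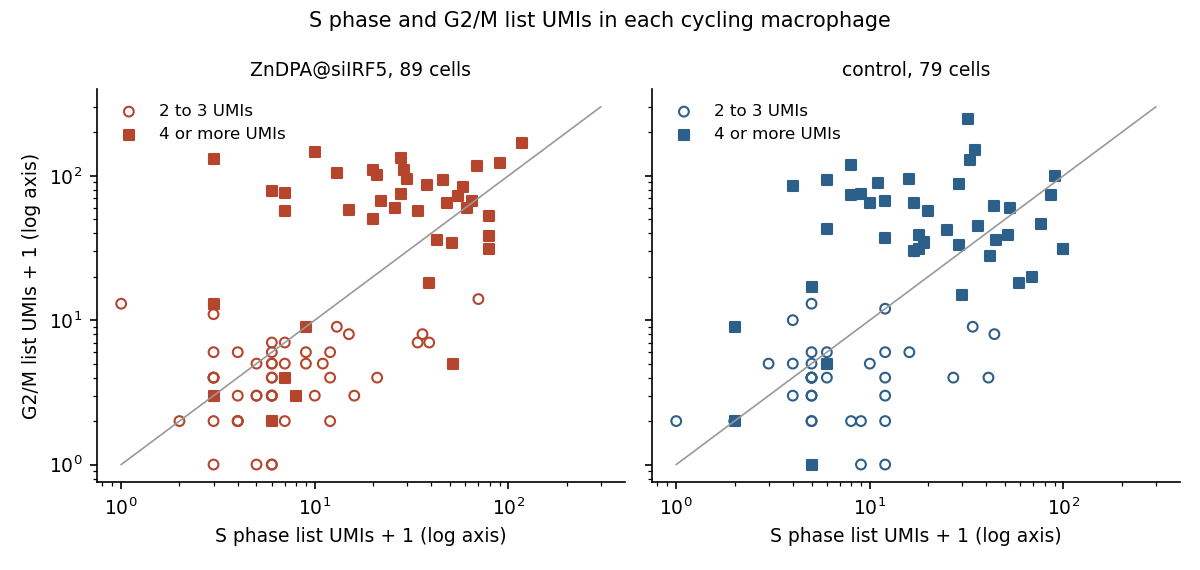
UMIs of the S phase list (x) and the G2/M list (y) in each member, both plus 1 on log axes, with 1 panel per library and a line where both are equal. Filled squares (4 or more proliferation UMIs) lie mostly high on the G2/M axis, and open circles (2 or 3) mostly near the origin.

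Members made up 4.12% of C1q macrophages under ZnDPA@siIRF5 (89 of 2158, exact Clopper-Pearson interval 3.32 to 5.05) and 5.37% in the control library (79 of 1472, 4.27 to 6.64). The log2 ratio of these shares was -0.38, with an interval from -0.83 to 0.08 that includes no difference. Members with 4 or more proliferation UMIs made up 1.85% (1.33 to 2.52) and 2.92% (2.12 to 3.91), a log2 ratio of -0.66 whose counting interval, -1.31 to -0.0008, ended next to 0. Of all kept cells, members were 0.714% and 0.656%. Kept cells of any type passed the cut of 2 proliferation UMIs at 5.77% under ZnDPA@siIRF5 and 8.91% in the control library. Both shares were above those of C1q macrophages, and the lower share under ZnDPA@siIRF5 was thus not particular to macrophages.

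Other cells passed the same cut at their own rates. Neutrophils, which mature after their last division, passed it at 1.15% and 2.10%, at a lower median depth of 2252 and 2531 UMIs. Of the 19 passing neutrophils in each library, 12 and 13 carried UMIs of the precursor genes Ngp, Camp, Ltf or Fcnb. No such UMI stood in 1149 of all 1647 and 584 of all 904 neutrophils. Of those without one, 7 and 6 passed, or 0.609% and 1.03%. Depth was made equal by thinning cells at random to 2000 UMIs, and since the outcome depended on the draw, 10 draws were made. Shallower cells were left out, 624 of 1647 and 256 of 904 neutrophils against 178 of 2158 and 108 of 1472 C1q macrophages, so the thinned neutrophils are the deeper part of their gate. A median of 1.31% (range of draws 1.11 to 1.52) and 1.94% (1.76 to 2.13) of C1q macrophages then had 2 or more proliferation UMIs. In neutrophils it was 0.880% (0.489 to 1.08) and 1.39% (1.08 to 1.70), so the macrophage range lay above the neutrophil range in each library, while the counting intervals at the medians overlapped. T cells passed the unthinned cut at 6.69% and 6.18% and monocytes at 6.38% and 11.2%. In the first thinning draw T cells passed at 4.07% and 3.62%, B cells at 1.51% and 1.35% and monocytes at 2.12% and 4.88%. In that draw all kept cells passed at 3.13% and 4.55%, and C1q macrophages at 1.41% and 1.91%.

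Among genes outside the rule, those highest in members over non-cycling macrophages were almost all mitotic. Ube2c, the ubiquitin-conjugating enzyme of the anaphase-promoting complex, stood at 221 and 264 CPM in members (ZnDPA@siIRF5, then control) against 1.25 and 2.17 CPM, log2 ratios of 7.47 and 6.92. Ccna2, the cyclin of S phase and early mitosis, had log2 ratios of 6.39 and 6.71, and Pclaf, a Pcna partner at replication forks, of 6.39 and 6.05. Cdc20, which activates the anaphase-promoting complex, was at 54.1 and 58.5 CPM against 1.16 and 1.28. Cdk1, the mitotic kinase, was at 83.4 and 95.2 CPM against 2.24 and 1.53. Cdca3, Spc24, Nusap1, Cdca8, Racgap1, Tpx2, Ccnb2 and Diaph3, with roles in the spindle, the kinetochore, mitotic entry or the division of the cell body, and Stmn1, which destabilises microtubules, completed the 15 highest with Rrm2. Rrm2, the limiting subunit of ribonucleotide reductase, stood at 44.4 and 63.1 CPM against 1.496 and 1.92.

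Over all 20031 genes with a UMI, 24.0% were higher in members than in non-cycling cells in both libraries and 31.6% lower in both. Read against that, all 54 of the G2/M genes, 45 of the 48 S phase genes and 21 of the 22 chromatin and tubulin genes were higher in both. Of the 8508 genes with at least 50 UMIs in a pool, 4.64% were at least 1.5-fold higher in both libraries and 4.23% at least 1.5-fold lower. With the members of 4 or more proliferation UMIs alone these shares were 8.76% and 7.77% of 8507. Because the members were picked by proliferation genes, these counts describe what came along with the rule.

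Most of that signal sat in the members with 4 or more proliferation UMIs, which gave 243 of the 249 Ube2c UMIs under ZnDPA@siIRF5 and 225 of the 230 in the control library. Ube2c was at 430 and 422 CPM there and at 10.7 and 14.7 CPM in members with 2 or 3. Cdk1 was at 159 and 150 CPM against 7.11 and 8.84. Cdc20 gave 61 and 50 UMIs in the first set and 0 and 1 in the second. Mcm6, a subunit of the replicative helicase, differed less, with 33.7 and 46.9 CPM against 23.1 and 44.2.

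Promoters are shown because S phase and mitotic genes are known to use different promoter elements. The 4 genes were chosen after their letters were seen, as examples that hold the motifs, and other mitotic promoters such as that of Ccnb1 held only CCAAT boxes in the same window. The cell cycle genes homology region (CHR, searched as TTTGAA or TTCGAA) and CCAAT boxes mark many G2/M promoters, and E2F sites (searched as TTTGGCGC, TTTCCCGC, TTTCGCGC or TTTGCCGC) mark many S phase promoters. Each stretch below is the 120 bases before the RefSeq start site in GRCm38.p6, written 5′ to 3′ on the gene's strand, with matches to these motifs on either strand in capitals. In order they are Cdc20 at chr4:118437344-118437463 (minus strand), Cdk1 at chr10:69352913-69353032 (minus), Ube2c at chr2:164769809-164769928 (plus) and Mcm6 at chr1:128359706-128359825 (minus).
Cdc20: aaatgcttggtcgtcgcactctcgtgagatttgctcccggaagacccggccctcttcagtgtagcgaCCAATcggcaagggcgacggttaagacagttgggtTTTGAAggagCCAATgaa
Cdk1: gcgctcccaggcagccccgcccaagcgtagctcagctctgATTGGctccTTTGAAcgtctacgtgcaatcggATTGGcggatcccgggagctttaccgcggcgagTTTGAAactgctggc
Ube2c: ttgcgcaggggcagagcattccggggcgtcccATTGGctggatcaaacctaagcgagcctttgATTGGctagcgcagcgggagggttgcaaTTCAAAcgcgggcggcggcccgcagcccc
Mcm6: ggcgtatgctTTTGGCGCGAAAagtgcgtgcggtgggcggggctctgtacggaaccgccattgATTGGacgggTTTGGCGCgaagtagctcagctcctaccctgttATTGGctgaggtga

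The 3 mitotic promoters each held a CHR match and 2 CCAAT boxes in these stretches, and Cdk1 held a second CHR match. Mcm6 held 3 E2F matches, 2 of them overlapping on opposite strands, with 2 CCAAT boxes and no CHR. In the 250 bases before the start site, 34.0% of 47 G2/M promoters held a CHR match against 17.1% of all 32851 promoters, and 68.1% against 33.8% held a CCAAT box. A CCAAT box also stood in 61.0% of 41 S phase promoters, so it did not set the 2 lists apart. CHR matches stood in 19.5% of S phase promoters. They stood in 28.6% of 21 promoters of resident macrophage genes and 22.2% of 18 of macrophage identity genes. An E2F match stood in 26.8% of S phase promoters, in 4.26% of G2/M promoters and in 1.86% of all. These are letter matches in lists of different size, base composition was not compared, and no binding was measured.

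Summed over members, G2/M list UMIs outnumbered S list UMIs in both libraries. By cell, 35 members held more G2/M and 48 more S UMIs under ZnDPA@siIRF5. In the control library 37 held more G2/M and 36 more S. The S to G2/M ratio of the summed UMIs on the log2 scale was -0.64 (95% counting interval -0.72 to -0.55) under ZnDPA@siIRF5 and -0.67 (-0.76 to -0.58) in the control library. Cycling T cells, which met the same proliferation cut and held at least 2 UMIs of Cd3e, Cd3d and Cd3g, stood near balance at 0.06 and 0.02. Their median of proliferation UMIs was 11 and 13, against 3 and 4 in the members. With 4 or more proliferation UMIs the macrophage ratio was -0.94 and -0.92, and 27 of 40 and 30 of 43 cells held more G2/M than S list UMIs. Cycling T cells also held more S phase list RNA, at 5221 and 5434 CPM against 2454 and 2388 CPM in those macrophages. Their G2/M lists, at 4997 and 5360 CPM, were closer to the macrophage levels of 4696 and 4534 CPM. The cuts differ here, 2 or more proliferation UMIs in T cells and 4 or more in macrophages. At the cut of 2, all members stood at 1613 and 1847 CPM for S phase and 2509 and 2945 CPM for G2/M. The rule reads genes that peak late in the cycle, and whether it leaves out early S phase macrophages was not tested.

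The D cyclins, which carry growth signals to Cdk4 and Cdk6, differed by less than 1.5-fold between non-cycling macrophages and all members. Ccnd1 was at 48.8 and 57.3 CPM in members and 50.5 and 38.3 CPM in non-cycling cells. Ccnd3 was at 94.0 and 81.4 against 110.6 and 88.8 CPM. In the members with 4 or more proliferation UMIs Ccnd1 was at 39.0 and 67.5 CPM, and Ccnd2 at 63.8 and 45.0 CPM against 39.3 and 39.5 in non-cycling cells, so each stood over 1.5-fold higher in 1 library and not in the other. Compared gene by gene with cycling T cells, macrophages held more Ccnd1 (11.8 and 5.85 CPM in T cells) and less Ccnd2, at 49.7 and 37.8 CPM against 128 and 105. Cdk4 stood at 95.8 and 100.9 CPM in members against 56.3 and 44.5. Myc, a growth regulator, was at 16.9 and 26.4 CPM in members and 15.6 and 23.5 CPM in non-cycling cells.

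Inhibitors of the cycle differed from one another. Cdkn2c (p18), an inhibitor of Cdk4 and Cdk6, was higher in members, with log2 ratios of 2.59 and 2.47, and Cdkn2d (p19) also, with 1.27 and 1.35. Cdkn1a (p21), which inhibits cyclin-dependent kinases after stress, was at 672 and 530 CPM in members, beside 532 and 610 CPM in non-cycling macrophages and 173 and 70.2 CPM in cycling T cells.

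Genes of macrophage identity made up a smaller share of the RNA in the members that clearly cycled. Members with 4 or more proliferation UMIs were also deeper, with medians of 12880 and 11078 UMIs per cell against 5909 and 5730 with none. Molecules per cell were not compared, so these CPM values do not show fewer such molecules in a cell. The list of 17 identity genes outside the rule summed to 12379 and 12112 CPM in non-cycling cells, to 11343 and 11645 CPM with 2 or 3 proliferation UMIs, and to 7147 and 7294 CPM with 4 or more. In members as a whole 14 of the 17 were lower in both libraries, where 31.6% of all genes were, and none higher in both. Csf1r, the receptor for the growth factor that macrophages need to survive, was at 291 and 270 CPM with 4 or more proliferation UMIs against 460 and 494 CPM with none. Lysosome genes behaved alike, at 13432 and 13036 CPM with none, 13491 and 13322 with 2 or 3, and 8337 and 8964 with 4 or more.

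By the same measure, a share of the RNA, the genes of resident aortic macrophages were lower still. All 20 measured genes of the list were below their non-cycling level in both libraries, where 31.6% of all genes were. Their sum was 11336 and 12764 CPM without proliferation UMIs, 7354 and 6539 CPM with 2 or 3, and 5272 and 3808 CPM with 4 or more, so it stepped down from set to set in each library. Lyve1, the hyaluronan receptor of vessel-associated macrophages, followed the same order, from 219 and 326 to 107 and 198 and then to 72.6 and 86.3 CPM. Folr2, a folate receptor, went from 495 and 506 to 270 and 218 and then to 193 and 124 CPM. Cd163, the haemoglobin scavenger receptor, ended at 51.4 and 11.3 CPM from 131 and 222. In the last set 54% of the Lyve1 UMIs under ZnDPA@siIRF5 and 39% in the control library came from 1 cell.

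Several C-type lectins and scavenger genes were among the 15 lowest. Cd209g, Cd209b, Cd209d and Cd209f, lectins of the DC-SIGN family, had log2 ratios between -1.504 and -3.37 over both libraries. Vsig4, a complement receptor, had log2 ratios of -3.25 under ZnDPA@siIRF5 and -1.51 in the control library. Ccl24, an eosinophil chemokine, had -2.13 and -1.60. Colec12, Gpx3, Cp, Kitl, Rcn3, Hspa1b, Maoa, Plekhg5 and Thrb made up the rest of that set. With at most 1 UMI of other lineages allowed, which left 10 and 20 members, Cd209b, Cd209g, Colec12, Gpx3, Hspa1b, Maoa and Thrb turned above 0 under ZnDPA@siIRF5, at 0.12 to 0.92. A count of 0 enters at the floor of 3 UMIs, which in 10 members can by itself place a ratio above 0. No minimum of UMIs was set for these values, so they do not show higher levels.

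**Figure D3:**
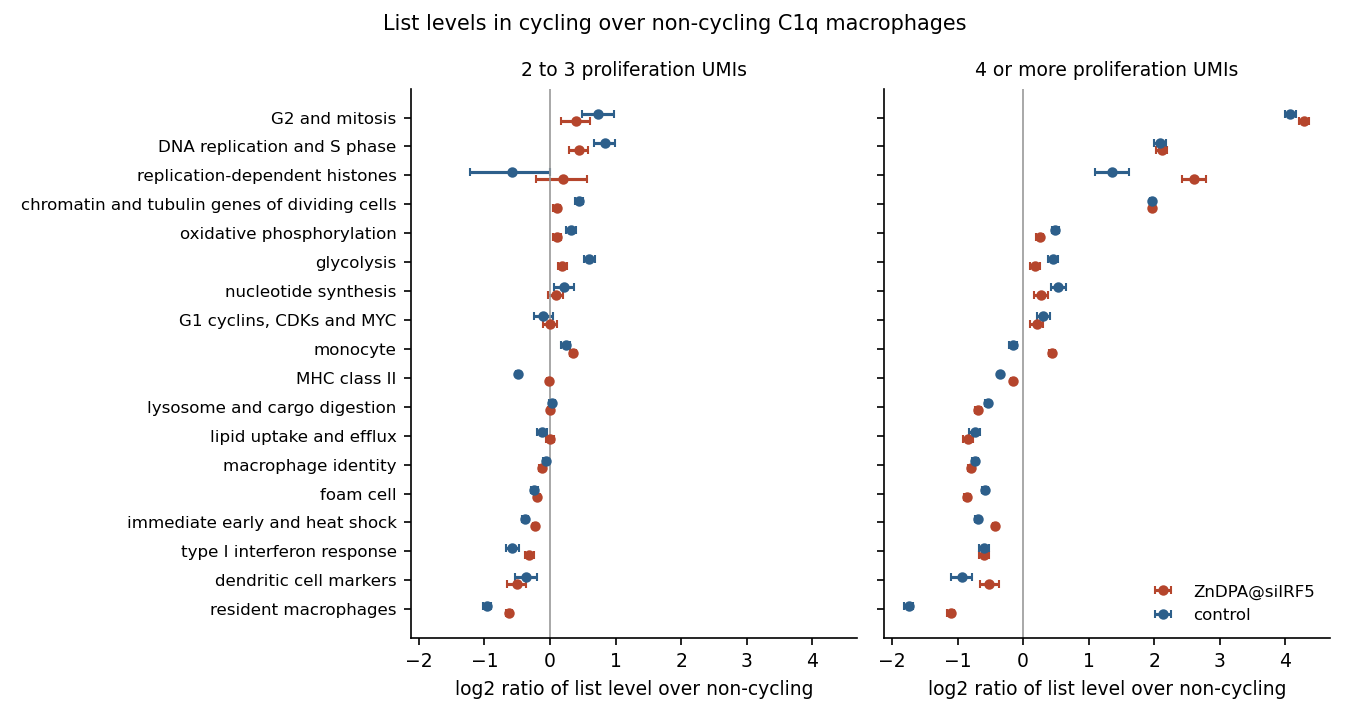
Log2 ratio of the summed level of each gene list in cycling over non-cycling C1q macrophages, for members with 2 or 3 (left) and with 4 or more proliferation UMIs (right), in the ZnDPA@siIRF5 (red) and control (blue) libraries with 95% counting intervals. Resident macrophage genes are below 0 in both panels, while the lysosome list is near 0 on the left and at -0.69 and -0.54 on the right.

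Shares of cells showed the resident difference at equal depth. After thinning to 2000 UMIs, a resident cell was one with at least 2 UMIs of Lyve1, Folr2, Cd163 and Timd4 together, and shares are medians over 10 draws. Such cells were 37.0% and 44.0% of non-cycling C1q macrophages, 25.5% and 23.6% of members with 2 or 3 proliferation UMIs, and 17.5% (range of draws 5 to 20) and 10.5% (9.30 to 14.0) of those with 4 or more. In T cells, which lack these genes, the medians were 0% (upper limit 0.171) and 0.0787%. The intervals of the last set, 7.34 to 32.8 and 2.59 to 22.1, lay below those of non-cycling cells in both libraries.

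Read the other way, 3.66% of resident cells and 6.74% of the others had a proliferation UMI in the thinned counts of the ZnDPA@siIRF5 library, and 3.79% and 8.02% in the control library. The median log2 ratio was -0.92 under ZnDPA@siIRF5, with draws from -1.45 to -0.50, and the counting interval lay below 0 in 7 of 10 draws. In the control library it was -1.02, with draws from -1.73 to -0.64, and the interval lay below 0 in 10 of 10. In unthinned counts with at least 4 proliferation UMIs the ratios were -0.48 (-1.49 to 0.49) and -1.85 (-3.03 to -0.79), so the first then included 0.

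Foamy cells, gated on Trem2, Gpnmb, Spp1 and Mmp12 (genes of lipid-laden macrophages), were 16.1% of members under ZnDPA@siIRF5 and 24.7% in the control library, against 16.6% and 15.8% of non-cycling cells. With 4 or more proliferation UMIs the shares were 13.8% (5.71 to 29.8) and 26.7% (15.3 to 43.7), and these intervals overlap. For the share with a proliferation UMI in over outside the gate, the counting interval of the log2 ratio included 0 in 10 of 10 draws under ZnDPA@siIRF5 and in 8 of 10 in the control library, where 2 lay above 0. In unthinned counts with at least 4 proliferation UMIs the control ratio was 1.60 (0.66 to 2.57), and that under ZnDPA@siIRF5 was 0.59 (-0.39 to 1.56).

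Within the foam genes, Gpnmb gave 0 UMIs in both sets with 4 or more proliferation UMIs, against 81.4 and 78.97 CPM in non-cycling cells. With 0 set to the floor of 3 UMIs per library, the levels were 15.3-fold and 14.0-fold lower. Only 6.498% and 4.86% of non-cycling cells carried the gene, and 1 cell held 10.4% and 15.7% of its UMIs there. In sets of 40 and 43 cells these folds are therefore not lower limits. Trem2, a lipid receptor, was at 72.6 and 255 CPM in those sets, beside 214 and 209 CPM in non-cycling cells. A gate on high MHC class II genes took 51.7% and 34.8% of members and 51.2% and 46.1% of non-cycling cells. A gate on Ly6c2, Ccr2, Plac8 and Fn1, meant for monocyte-derived cells, also passed 39.7% and 40.0% of T cells and is not read further.

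**Figure D4:**
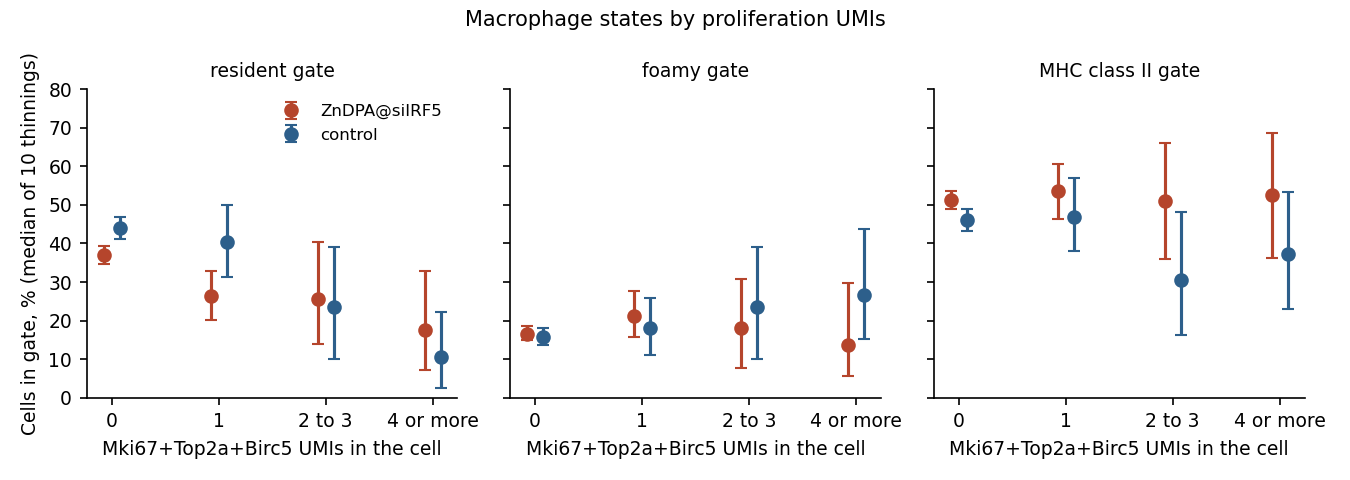
Share of C1q macrophages in the resident, foamy and MHC class II gates (percent, thinned to 2000 UMIs, median of 10 draws) by proliferation UMIs, in the ZnDPA@siIRF5 (red) and control (blue) libraries with exact 95% binomial intervals at the median count. The resident share goes from 37.0% and 44.0% at 0 UMIs to 17.5% and 10.5% at 4 or more.

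Other programmes also differed between members and non-cycling cells. Of 20 oxidative phosphorylation genes 19 were higher in both libraries, where 24.0% of all genes were, and their sum was 4382 and 4600 CPM against 3864 and 3418. The differences were small: 0 of the 20 were at least 1.5-fold higher in both, where 4.64% of measured genes were. The 24.0% is over all genes with a UMI, while all 20 were measured with at least 50 UMIs in a pool. Type I interferon genes were lower, 22 of 26 in both libraries against 31.6% of all genes, with sums of 2954 and 2651 against 4043 and 3992 CPM. Ifit1, an interferon-induced RNA binder, had log2 ratios of -1.77 and -1.07. Immediate early and heat shock genes, which respond to handling of tissue, were lower in both libraries in 19 of 20 cases, at 13814 and 11407 against 17366 and 16856 CPM. Chil3 (Ym1), made by monocytes and activated macrophages, went the other way, from 144 and 90.3 to 515 and 503 CPM.

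Between the libraries the cell-cycle lists of the members were close. Of 54 G2/M genes 18, and of 48 S phase genes 16, were higher under ZnDPA@siIRF5, where 47.8% of the 14711 genes with a UMI were. The medians over the genes with at least 50 UMIs in a library were -0.15 and -0.11, beside 0.01 for all 3797 such genes. With 4 or more proliferation UMIs they were 0.11 and 0.10, so the direction was not the same in that set, where 8.39% of 2347 measured genes were at least 1.5-fold higher and 6.01% lower. Ube2c stood at 221 and 264 CPM over all members and at 430 and 422 CPM in that set.

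Genes induced by interferon gamma, the main macrophage-activating cytokine of T cells, were higher in members of the ZnDPA@siIRF5 library. Of the 20 with a UMI, 19 were higher, beside 47.8% of all genes, and the list summed to 1603 against 679 CPM. Gbp5, a guanylate-binding protein, was at 85.2 against 5.73 CPM and had UMIs in 28 of 89 and 5 of 79 members. Gbp2 was at 79.8 against 17.2 CPM, and Irf1, a transcription factor of the response, at 201 against 51.6 CPM. Irgm1, an immunity-related GTPase, was at 55.0 against 14.9 CPM. Cxcl9, a T cell chemokine, showed 260 against 4.59 CPM, but 71% of its UMIs came from 1 cell.

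Non-cycling macrophages differed in the same direction. All 20 measured genes of that list were higher there under ZnDPA@siIRF5, where 61.8% of 9590 measured genes were (3.73% at least 1.5-fold higher and 2.35% lower), and the list summed to 1077 and 670 CPM, against 1603 and 679 CPM in members. A single cell held 20.6% of the sum of the ZnDPA@siIRF5 members, and whether members and non-cycling cells differ in this was not tested. Gbp5 had a log2 ratio of 3.89 (2.62 to 5.55) in members and 1.19 in non-cycling cells, and Irf1 of 1.96 (1.49 to 2.45) and 0.98. Both were named for their large ratios in members, so the larger member values cannot serve as a comparison of the pools. In the set with 4 or more proliferation UMIs the list summed to 1752 and 698 CPM, and 38% of the first sum came from 1 cell.

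**Figure D5:**
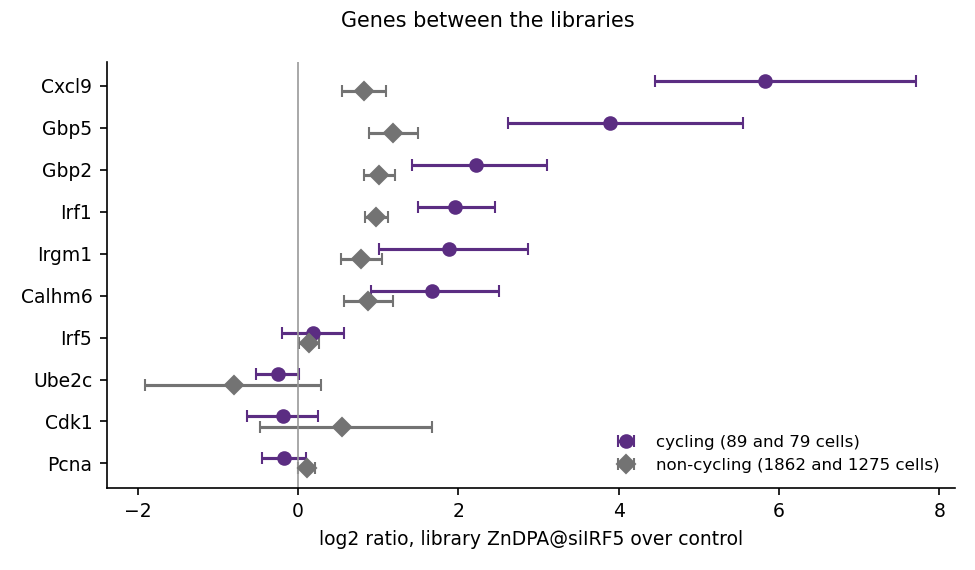
Log2 ratio of the ZnDPA@siIRF5 over the control library for interferon gamma genes, Irf5 and 3 cell-cycle genes, in members (purple circles) and in non-cycling C1q macrophages (grey diamonds), with 95% counting intervals. The interferon gamma genes, shown for the largest member ratios of their list, are above 0 in both. Irf5 and the cell-cycle genes are near 0 in members.

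Among all measured genes 5.82% were at least 1.5-fold higher in members under ZnDPA@siIRF5 and 4.16% at least 1.5-fold lower. The 12 highest were led by genes that few cells carried. Arg1, an arginase of activated macrophages, gave 97 against 1 UMIs with 82% of the first from 1 cell, Marco, a scavenger receptor, 61 against 0 all from 1 cell, and Il12b 52 against 0 with 98% from 1 cell. Saa3, an acute phase protein, gave 1253 against 56 UMIs with 58% from 1 cell, and Cd5l 125 against 14 with 50%. Plcb1, a phospholipase, was spread over 25 and 9 cells at 228 against 31.0 CPM. Vcan, a matrix proteoglycan of monocytes, was at 171 against 22.9 CPM in 17 and 12 cells, Lyz1 at 169 against 12.6 CPM, and Retnla at 1424 against 244 CPM in 23 and 18 cells. Of the 18 monocyte genes 16 were higher under ZnDPA@siIRF5, beside 47.8% of all genes. In non-cycling cells 15 of the 18 were, beside 61.8%. Hist1h2ap, a replication-dependent histone, was at 58.6 against 9.17 CPM.

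The lowest genes under ZnDPA@siIRF5 were neutrophil granule genes carried by a few control cells. Camp gave 10 against 1112 UMIs, Ngp 15 against 1024, S100a8 316 against 4137 and S100a9 452 against 4818, and Ltf, Elane, Lcn2, Wfdc21, Retnlg, Pglyrp1 and Prtn3 were lower too. Members with at least 20 UMIs of S100a8 and S100a9 numbered 5 in each library, with at most 351 UMIs in a cell under ZnDPA@siIRF5 and 3544 in the control library. The 3 richest control members held 86% of these UMIs, and 3 control members against 1 carried at least 5 UMIs of Ngp, Camp, Ltf and Fcnb together. Control members with 4 or more proliferation UMIs gave 1111 of the 1112 Camp, 1023 of the 1024 Ngp and 3573 of the 4137 S100a8 UMIs. Without the 5 and 5 cells the neutrophil list median turned from -3.93 to 0.68. Siglece, an inhibitory lectin, was lower outside that group as well, with 16.0 against 67.6 CPM in 16 and 32 cells, a log2 ratio of -2.08 and of -2.05 without those cells.

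Markers of other lineages were present at unequal levels. Plasma cell markers outside the rule summed to 907 and 2070 CPM in members against 1145 and 2870 CPM in non-cycling cells. Markers of natural killer and cytotoxic cells summed to 434 and 271 against 257 and 236 CPM. Of those 9 markers only Ccl5, also on the inflammatory chemokine list, was measured, with log2 ratios of 0.93 and -0.01. In both libraries 0 of the 9 were higher in members and 2 lower, where 24.0% and 31.6% of all genes were. T cell markers outside the rule summed to 70.1 and 86.0 CPM and B cell markers to 58.6 and 64.2 CPM in members, near or below the 79.5, 82.3, 88.0 and 101 CPM of non-cycling cells. The 14 neutrophil markers ranged from 925 CPM under ZnDPA@siIRF5 to 13562 CPM in the control library, against 2808 and 2384 CPM in non-cycling cells, with 2 and 0 markers at 0. Dendritic cell markers summed to 720 and 681 CPM, below the 1025 and 1096 CPM of non-cycling cells, while the median ratio over the 8 measured markers was above 0, at 0.63 and 0.19. Ccr7 was at 55.9 and 60.8 CPM in members and Zbtb46 at 30.2 and 45.9 CPM, against 9.39 and 17.3 and 11.7 and 15.6 CPM. At least 3 UMIs of Flt3, Zbtb46, Cd209a, Ccr7 and Xcr1 together stood in 5 and 13 members and in 4.62% and 6.12% of non-cycling cells, and the part of such cells in the results was not tested.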

How the data were processed

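Single-cell RNA was measured in 2 libraries, 1 per group, with the Chromium 3′ kit per the labels' protocols. The deposited values are raw UMI counts per gene and barcode, from Cell Ranger 7.2.0 per the file headers, while the submitters' processing notes name Cell Ranger 3.1.0, Seurat 4.4.0 and mm10. Kept cells held 77200450 and 88007779 UMIs. The members and the 37 gene lists were chosen with earlier results of these data known.

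UMIs were summed over member cells and over C1q macrophages without Mki67, Top2a or Birc5 UMIs and scaled to a total of 1000000 (CPM). Log2 ratios carry exact conditional binomial 95% intervals, with 0 set to a floor of 3 UMIs. A gene was measured with at least 50 UMIs in a pool, and 1.5-fold differences were counted. Shares carry Clopper-Pearson intervals. Cells were thinned by hypergeometric draws in 10 repeats, added after a single draw was seen to change results, and medians and ranges are given. Named genes were the 12 highest and lowest between libraries and the 15 highest and lowest between members and non-cycling cells (at least 50 UMIs and 20 CPM, without mitochondrial, ribosomal, sex-linked, predicted and antibody genes and those of the rule), and up to 6 per list. Doublets were called with Scrublet (scanpy 1.11.5) and kept. The ratio code was tested on simulated data. PCR duplicates were removed by UMI, so counts are molecules. Positions came from GENCODE vM21, which held 32158 of 32285 genes.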

Additional observations from a re-analysis of the deposited data

Results flagged for a closer look

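Neutrophil marker genes moved in opposite directions in the 2 libraries. Their median log2 ratio of members over non-cycling macrophages was -1.76 under ZnDPA@siIRF5 and 2.04 in the control library, and the difference was not tested. Between the libraries the same list had a median of -3.93 in members and 0.22 in non-cycling macrophages, also not tested. In the control library 3 members held 86% of the S100a8 and S100a9 UMIs of its members.

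Replication-dependent histones were higher under ZnDPA@siIRF5 in members, with a median log2 ratio of 0.75 over 4 measured genes. In non-cycling macrophages the median was -0.20 over 3 measured genes, so the medians rest on different gene sets. Of the members' 4, Hist1h2ap (66 against 8 UMIs) met the minimum of 50 UMIs only in the library where it was high. That difference was not tested.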

How the results depend on the processing

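Each group had 1 library and the intervals cover counting error only, so nothing here shows how mice would vary. No paired analysis was possible because there was 1 library per group. The share of members was 13.7% and 13.4% of C1q macrophages (ZnDPA@siIRF5, then control) with at least 1 proliferation UMI, 1.85% and 2.92% with at least 4, and 1.41% and 1.91% in the first thinning draw. With at most 1 UMI of other lineages, it was 1.59% and 3.96%, a log2 ratio of -1.32 from 10 and 20 members whose interval, -2.58 to -0.16, no longer included 0. Of 27 alternative values of these shares, 18 moved by less than their interval.

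Between the libraries 221 of 3797 measured genes were at least 1.5-fold higher and 158 lower. With a minimum of 20 UMIs the counts were 573 and 498 of 6545. With at most 1 UMI of other lineages they were 33 and 77 of 528. The last setting turned Pglyrp1 to 1.04 and S100a9 to 0.46. Cd5l turned to -0.46 with at least 4 proliferation UMIs, and Retnlg to 1.52 without doublet calls. Without cells of at least 20 S100a8 and S100a9 UMIs, left out after the data were seen, the neutrophil list median turned to 0.68. Log2 ratios then were 1.18 for Elane, 2.502 for Lcn2, 1.30 for Ngp, 0.53 for Pglyrp1, 1.78 for Prtn3, 1.12 for Retnlg, 1.04 for S100a8, 0.61 for S100a9 and 1.18 for Wfdc21. They rest on few control UMIs, in the same order 0 (set to the floor of 3), 4, 4, 11, 9, 8, 33, 38 and 2. The neutrophil list of control members over non-cycling cells turned to -0.50. The cause of the other turns was not tested.

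Of members over non-cycling cells, 395 of 8508 measured genes were at least 1.5-fold higher in both libraries and 360 lower. The higher count was 644 of 10566 with a minimum of 20 UMIs and 241 of 5044 with at most 1 UMI of other lineages. With at least 4 proliferation UMIs the counts were 745 and 661 of 8507. Against deep non-cycling cells, an alternative added later, they were 216 and 132 of 6721. The dendritic cell list under ZnDPA@siIRF5 turned to -0.23 with at least 4 proliferation UMIs, -0.12 with at least 10 C1q UMIs, -0.42 with at most 1 UMI of other lineages and -0.043 against deep cells. With at most 1 UMI of other lineages, the monocyte list turned to -0.21 under ZnDPA@siIRF5. There Cd209b turned to 0.62, Cd209g to 0.18, Colec12 to 0.12, Gpx3 to 0.49, Hspa1b to 0.52, Maoa to 0.72 and Thrb to 0.92. For these genes a count of 0 enters at the floor of 3 UMIs, so in 10 members the values do not show higher levels.

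Gate ratios of proliferating shares differed in unthinned counts, and those of the monocyte-derived gate, which T cells also pass, are given for completeness only. The resident ratio under ZnDPA@siIRF5 was then -0.39, the foamy control ratio 1.24, the monocyte-derived ratios 0.92 and 1.36 and the inflammatory ratio under ZnDPA@siIRF5 1.65. With at least 4 proliferation UMIs, added later, the resident ratio under ZnDPA@siIRF5 was -0.48, the monocyte-derived ratios 0.86 and 1.53, the MHC class II ratio under ZnDPA@siIRF5 1.10 and the foamy control ratio 1.60. The S to G2/M ratio was -0.94 and -0.92 with at least 4 proliferation UMIs, and -0.77 in the control library without the neutrophil-rich cells.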
